A study of Homo sapiens with 4 samples.

Results

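The genes described here are transcriptional outputs of ERK that act back on the same pathway: the phosphatases DUSP4, DUSP5 and DUSP6, the Sprouty genes SPRY1, SPRY2 and SPRY4, the Sprouty-related genes SPRED1 and SPRED2, and the ETS factors ETV4 and ETV5. They were taken by name from a list of 10, and 9 of them were measured among the 18567 genes of the expression table. SPRED1 was not analysed here. All 9 had at least 1 TPM, a share of transcripts corrected for their length, in every sample and so passed the filter on low values.

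The data came from Kasumi-1, a widely used line of acute myeloid leukemia cells that carries the RUNX1-RUNX1T1 fusion and is known for an activating KIT mutation. Total RNA was sequenced from 2 control samples (NC) and 2 samples in which ANP32B had been knocked down by a short hairpin RNA (sh-ANP32B), a nuclear phosphoprotein of the acidic leucine-rich family. According to the labels, NC cells were untreated and carried no hairpin, while the methods of the study describe a hairpin control and selection of infected cells with puromycin. Differences due to infection and selection therefore cannot be told apart from those due to the knockdown if the labels are right. Which of the study's ANP32B hairpins each knockdown sample carried was not given, nor whether the replicates were separate cultures, so p-values measure only the spread between these samples.

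In the ERK pathway, activated receptors load RAS with GTP, and RAS switches on the kinases RAF, MEK and ERK in turn. ERK then induces a set of its own inhibitors: DUSP phosphatases remove the activating phosphates from ERK, Sprouty proteins interfere with the signal between receptor and RAS, and SPRED proteins bring the RAS inactivator neurofibromin to the membrane. ETV4 and ETV5 are transcription factors of the PEA3 subfamily whose transcripts follow ERK activity. Because these transcripts depend on ERK, their levels are widely used as a readout of pathway output in leukemia and other cancers that carry receptor or RAS mutations.

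ANP32B was examined first as a check of the labels. Its level was 384 and 392 TPM in NC, against 51.8 and 41.2 TPM after knockdown, so that the knockdown samples held 11.99% of the NC mean (log2 fold change -3.04). Of the leukemia blast and Kasumi-1 markers listed, RUNX1T1 had 17.6 and 15.6 TPM in NC, against 31.2 and 26.8 TPM after knockdown. CD33 had 68.3 and 58.5 TPM in NC, against 69.1 and 70.1 TPM after knockdown. ANPEP had 87.6 and 81.7 TPM in NC, against 124 and 134 TPM. PTPRC had 113 and 116 TPM in NC, against 203 and 147 TPM. CD38 went the other way, with 8.19 and 8.26 TPM in NC, against 5.10 and 4.15 TPM. KIT was low, at 1.55 and 2.31 TPM in NC, against 3.41 and 2.76 TPM after knockdown. None of the 6 tested passed the test for a change given below. Even so, the groups did not overlap in any of the 6, with 5 higher and 1 lower in sh-ANP32B, against 54.6% of all genes. The study's criterion, also given below, was met by 3 that were higher and 1 that was lower, against 18.6% of all genes. CD34 and MPO were not analysed here. CD79A, a B lymphocyte marker, had at most 2.17 TPM in any sample and was listed at 0 in 1. The erythroid, epithelial and fibroblast markers on the lists were not analysed here.

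The question asked of the ERK feedback genes was whether their transcript levels differed between sh-ANP32B and NC samples. ERK activity was not measured in these RNA data, so the values cannot decide whether the output of the pathway moved. None of the 9 genes passed the test for a change. limma, applied to log2(TPM + 1) of every gene that reached 1 TPM in 2 or more samples, gave an adjusted p under 0.05 for 0 of the 9, where 559 of 16817 genes, or 3.32%, passed. At an unadjusted p under 0.05 there was 1 gene, SPRY2, against 3995 of all genes. The study's own criterion, an unadjusted p under 0.05 together with a log2 change of more than 0.5 in either direction, was met by 0 of the 9 and by 18.6% of all genes. NC and sh-ANP32B samples were fully separated in 4 of the 9 genes, 1 higher and 3 lower in sh-ANP32B, against 54.6% of all genes.

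The fold changes of the 9 genes were small in either direction. They ran from -0.39 to 0.37 on the log2(TPM + 1) scale, a scale that understates the change of low genes. The median was -0.020, beside 0.08 over all genes, and the median absolute value was 0.205, beside 0.288. The 95% interval of the fold change stayed within a log2 change of 1 in either direction for 8 of the 9, and for 62.6% of all genes. The 9385 tested genes with mean levels in the range of the 9, between 2.91 and 47.3 TPM, included 274 with an adjusted p under 0.05, and the smallest absolute log2 fold change among those was 0.77. Changes as small as those of the ERK feedback genes were therefore not called in any gene of this range.

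**Figure D1:**
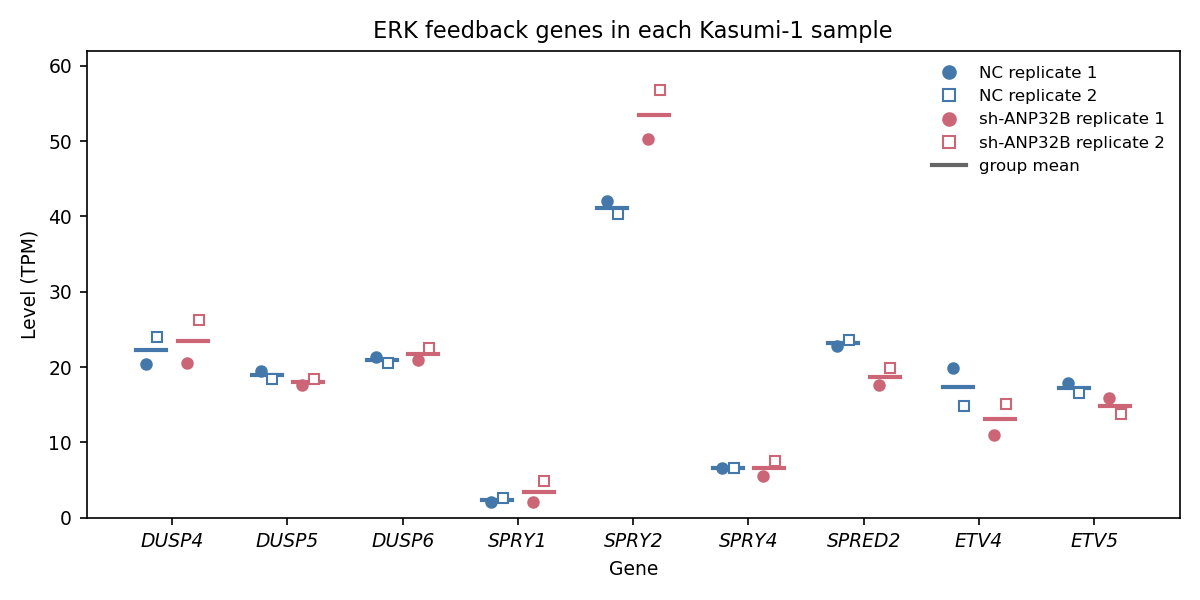
Level of each ERK feedback gene in TPM (vertical axis, linear, from 0) in NC (blue) and sh-ANP32B (red), with filled circles for replicate 1, open squares for replicate 2 and bars for group means (n = 2 each). SPRY2 is the highest in all samples and the one gene whose sh-ANP32B values both lie above NC, while SPRED2, ETV5 and DUSP5 lie below NC in both.

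The DUSP phosphatases came first, since they act on ERK itself. DUSP6, a cytoplasmic phosphatase selective for ERK, is on the minus strand of chromosome 12 (hg38), from position 89347235 to 89352501. It had 21.4 and 20.5 TPM in NC, against 20.95 and 22.6 TPM after knockdown, and the groups overlapped. The limma fit put the log2 fold change at 0.051 (SE 0.161, adjusted p 0.889). The 95% interval ran from -0.33 to 0.43, which on the same scale is 0.794 to 1.35 times the NC level. An antisense long noncoding RNA, ENSG00000274021, overlaps exons of DUSP6 and had at most 1.26 TPM in any sample.

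DUSP5, the nuclear counterpart that binds and inactivates ERK, is on the plus strand of chromosome 10 (110497907 to 110511533). It had 19.5 and 18.5 TPM in NC, against 17.6 and 18.4 TPM after knockdown. The groups were just separated, with the higher knockdown value 18.40 against the lower NC value 18.47. On the log2 scale the change was -0.073 (95% interval -0.47 to 0.32, limma adjusted p 0.835).

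DUSP4, a nuclear phosphatase of ERK and of the stress kinases JNK and p38, is on the minus strand of chromosome 8 (29333064 to 29350684). It had 20.4 and 24.1 TPM in NC, against 20.6 and 26.3 TPM after knockdown. Each group thus held a low and a high sample, and the spread within groups was larger than the difference between them. The difference on the log2 scale was 0.069 (95% interval -0.39 to 0.52, limma adjusted p 0.872). DUSP4 and DUSP6 both lay below the median of all genes, 0.083, and after median-of-ratios scaling, which put that median at 0.00059, they were at -0.021 and -0.039.

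The 3 Sprouty genes did not follow one another. SPRY2, an inhibitor of receptor signaling to RAS, is on the minus strand of chromosome 13 (80335976 to 80341126). It had 42.1 and 40.3 TPM in NC, against 50.2 and 56.7 TPM after knockdown. Both knockdown samples lay above both NC samples, and the mean was 53.5 ± 4.61 TPM against 41.2 ± 1.25 TPM (SD, n = 2 each). This gave a log2 fold change of 0.37 (SE 0.145, 95% interval 0.02 to 0.71), with an unadjusted limma p of 0.0411 and an adjusted p of 0.192 over all genes.

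SPRY2 was thus not called with all samples. Over the fits that left out 1 sample its log2 fold change ranged from 0.28 to 0.45, the latter without sh-ANP32B replicate 1. In such a fit the lone sample is assumed to vary like the other group. Over the alternatives that kept all samples the fold change stayed between 0.28 and 0.37 and the limma adjusted p between 0.116 and 0.368.

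SPRY4, on the minus strand of chromosome 5 (142310427 to 142326455), is likewise induced by ERK and inhibits the pathway above RAS. It had 6.63 TPM in both NC samples and 5.59 and 7.59 TPM in sh-ANP32B. The knockdown samples lay on either side of NC, and the log2 fold change was -0.020 (95% interval -0.58 to 0.54, limma adjusted p 0.974).

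SPRY1, a Sprouty gene on the plus strand of chromosome 4 (123396795 to 123403760), was the lowest of the 9. It had 2.11 and 2.58 TPM in NC, against 2.09 and 4.86 TPM after knockdown, so that 1 knockdown sample was below both NC samples and the other above them. Its log2 fold change was 0.35 (SE 0.368, 95% interval -0.53 to 1.23, limma adjusted p 0.618), the widest interval of the 9. It was 0.81, past the study's criterion, without sh-ANP32B replicate 1 and -0.11 without sh-ANP32B replicate 2.

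SPRED2, which holds RAS signaling in check at the membrane, is on the minus strand of chromosome 2 (65310851 to 65432637). It had 22.9 and 23.5 TPM in NC, against 17.7 and 19.8 TPM after knockdown, with no overlap between the groups. The mean was 18.8 ± 1.53 TPM in sh-ANP32B, or 80.8% of the 23.2 ± 0.480 TPM in NC (SD, n = 2 each). This was a log2 fold change of -0.30 (SE 0.164, 95% interval -0.69 to 0.10, limma adjusted p 0.330). It stayed negative in every alternative run, between -0.38 and -0.22, and reached an adjusted p under 0.05 in none of them.

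Among the relatives of SPRED2, SPRED3 was picked for mention after its values had been seen. It had 6.04 and 3.68 TPM in NC, against 8.28 and 9.28 TPM after knockdown, for which limma gave 0.77 on the log2 scale (adjusted p 0.152).

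Both ETS factors had lower means in sh-ANP32B, and neither passed the test. ETV4, on the minus strand of chromosome 17 (43527844 to 43579620), had 19.9 and 14.9 TPM in NC, against 11.0 and 15.2 TPM after knockdown. The higher knockdown sample lay above the lower NC sample, and the log2 fold change was -0.39 (SE 0.233, 95% interval -0.94 to 0.17, limma adjusted p 0.370). The size of this value depended on the samples. It was -0.60, past the study's criterion, without sh-ANP32B replicate 2 and -0.17 without sh-ANP32B replicate 1, and without NC replicates 1 and 2 it was -0.19 and -0.58.

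Exons of ETV4 overlap those of the helicase gene DHX8 on the opposite strand. Whether strand was used in counting is not stated, so reads of ETV4 and DHX8 cannot be told apart there. DHX8 had between 26.9 and 32.7 TPM and its log2 fold change was 0.0097.

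ETV5, on the minus strand of chromosome 3 (186046314 to 186110318), had 17.9 and 16.5 TPM in NC, against 15.9 and 13.7 TPM after knockdown. The groups did not overlap, and the log2 fold change was -0.20 (SE 0.178, 95% interval -0.63 to 0.22, limma adjusted p 0.537). Its exons overlap on the same strand with those of DGKG, a lipid kinase gene with a log2 fold change of -0.094, which makes the assignment of reads between the 2 genes uncertain.

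**Figure D2:**
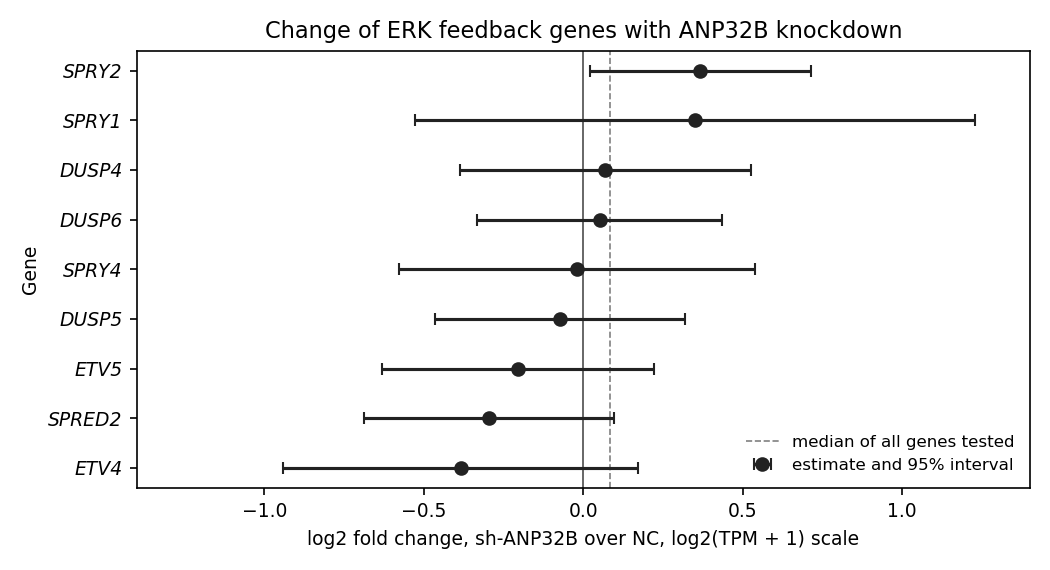
log2 fold change of each ERK feedback gene in sh-ANP32B over NC (horizontal axis, log2(TPM + 1) scale) with its 95% interval from limma. The interval of SPRY2, from 0.02 to 0.71, is the single one that does not include 0, and no gene had an adjusted p under 0.05.

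TPM divides by transcript length, so levels can also be compared between the genes. In NC the order was SPRY2 (41.2 TPM), SPRED2 (23.2), DUSP4 (22.2), DUSP6 (20.96), DUSP5 (19.0), ETV4 (17.4), ETV5 (17.2), SPRY4 (6.63) and SPRY1 (2.34), each the mean level in TPM. The ranges of SPRED2 and DUSP4, of DUSP4 and DUSP6, of DUSP5 and ETV4, and of ETV4 and ETV5 overlapped, so these neighbours did not differ beyond their spread. SPRY2 stood above all others and SPRY4 and SPRY1 below them in every sample.

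In sh-ANP32B SPRED2 took the fourth place, behind DUSP4 and DUSP6, in the order of mean levels, and the mean of ETV5 was above that of ETV4. There the ranges overlapped for DUSP4 and DUSP6, for SPRED2 and DUSP5, and for ETV5 and ETV4. Summed over the 9 genes, the levels were 173 and 167 TPM in NC, against 162 and 185 TPM after knockdown, so the groups overlapped and the knockdown samples lay on either side of NC.

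The knockdown replicates differed from each other along the genes. sh-ANP32B replicate 2 was above replicate 1 in 8 of the 9 genes, all except ETV5, while NC replicate 2 was above replicate 1 in 4. Across 15427 tested genes the difference between the sh-ANP32B replicates was larger at higher GC content of the transcript (Spearman rho 0.577), while that between the NC replicates went the other way (-0.206), both as descriptions across genes, which are not independent. GC content of the 9 transcripts ran from 44.8% in SPRY1 to 60.6% in ETV4. After a correction for GC content the log2 fold change of ETV4 was -0.60 with an adjusted p of 0.0657 by limma, within a range of 0.0657 to 0.434 over the alternatives that kept all samples. It then met the study's criterion, and the other 8 genes did not.

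The rest of the pathway was described from a list of 101 genes, of which 87 were tested. Of these, 3 were higher and 1 was lower with a limma adjusted p under 0.05, a count of 4 beside 3.32% of all genes. At an unadjusted limma p under 0.05 there were 23 of the 87, beside 3995 of 16817 genes. The log2 fold change was above 0 in 72 and below 0 in 15, beside 9741 above 0 of 16817 genes in all. The median was 0.20, beside 0.08 over all genes. Median-of-ratios scaling put the median of all genes at 0.00059, and the split of the 87 was not recounted there. The count rested on the samples used, with 1 gene without NC replicate 1, 30 without sh-ANP32B replicate 1 and 22 without sh-ANP32B replicate 2. In those last fits the counts over all genes were larger as well, 4079 and 3487. Without the abundance trend limma called 0 of the 87, CSF2RB, CSF3R, RASAL3 and MYC included, with 19 at an unadjusted p under 0.05.

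Upstream of RAS, 20 receptors and adaptors were tested, and 2 of them rose. In 4 of the 20 the unadjusted limma p was under 0.05. CSF2RB, the shared beta chain of the GM-CSF, IL-3 and IL-5 receptors, had 10.1 and 12.2 TPM in NC, against 25.3 and 25.7 TPM after knockdown. Its log2 fold change was 1.13 (limma adjusted p 0.0392). CSF3R, the G-CSF receptor, had 77.0 and 72.5 TPM in NC, against 121 and 158 TPM after knockdown, or 0.88 on the log2 scale (SE 0.164, limma adjusted p 0.0455).

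These calls depended on the NC samples. Without NC replicate 1 the limma adjusted p of CSF2RB was 0.132, and that of CSF3R was 0.117 without NC replicate 1 and 0.195 without NC replicate 2. For CSF3R it was also 0.0592 after median-of-ratios scaling. Over the alternatives that kept all samples, this p ran from 9.8e-04 to 0.114 for CSF2RB and from 0.00217 to 0.129 for CSF3R. At the other end, PTPN11, the phosphatase SHP2 that carries receptor signals to RAS, and the receptor FLT3 had log2 fold changes of -0.16 and -0.11 and did not pass.

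Of the 15 RAS proteins and regulators tested, 7 had an unadjusted limma p under 0.05 and 1 passed the limma test. That gene, RASAL3, a RAS GTPase-activating protein of blood cells, rose. It had 36.2 and 36.7 TPM in NC, against 58.0 and 66.7 TPM after knockdown, or 0.75 on the log2 scale (SE 0.147, limma adjusted p 0.0482). RASAL3 lost the call in 6 of the 11 alternatives that kept all samples, where its limma adjusted p ranged from 0.0129 to 0.126. With 1 sample left out its log2 fold change ranged from 0.66 to 0.85.

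RASA4, another RAS GTPase-activating protein, and the RAS-related RRAS had the highest fold changes of the group, 1.16 and 1.03, with limma adjusted p of 0.0581 and 0.0757. MRAS had the lowest, -0.48. None of these 3 passed the test, but the first pair did under other settings. With the replicate block, a term for the replicate number, the limma adjusted p was 0.000529 for RASA4 and 0.000662 for RRAS. Over the 11 alternatives that kept all samples, RASA4 passed in 5 and RRAS in 4, with limma adjusted p of 0.000529 to 0.132 and 0.000662 to 0.159. Both also passed when either sh-ANP32B sample or NC replicate 2 was left out, and their limma adjusted p without NC replicate 1 was 0.259 and 0.147.

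None of the 12 RAF, MEK and ERK kinases and scaffolds passed the test, with 1 at an unadjusted limma p under 0.05. The highest fold changes were those of PEA15, which retains ERK in the cytoplasm, and of MAPK3, which encodes ERK1, at 0.45 and 0.43. The lowest were those of the scaffold IQGAP1 and of BRAF, at -0.19 and -0.027. MAPK3 had 56.0 and 41.8 TPM in NC, against 59.1 and 72.8 TPM after knockdown (limma adjusted p 0.234). Without sh-ANP32B replicate 1, the log2 fold changes of PEA15, MAPK3 and IQGAP1 were 0.61, 0.58 and -0.34.

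Of the 7 kinases below ERK, 0 passed the limma test and 0 had an unadjusted p under 0.05. RPS6KA4 and MKNK2 were highest with log2 fold changes of 0.48 and 0.39, and RPS6KA3 and RPS6KA5 lowest with -0.067 and 0.058. Without sh-ANP32B replicate 1, the log2 fold changes of RPS6KA4 and MKNK2 were 0.74 and 0.77.

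The immediate and delayed early genes are induced by ERK like the feedback genes, and 14 of them were tested. MYC fell, from 131 and 144 TPM in NC to 56.7 and 63.2 TPM in sh-ANP32B, a change of -1.18 on the log2 scale (limma adjusted p 0.0261). The other 13 did not pass, although the groups did not overlap in any of the 14, against 54.6% of all genes, with 10 higher and 4 lower in sh-ANP32B. The unadjusted limma p was under 0.05 for 8 of the 14, beside 3995 of 16817 genes. The urokinase receptor gene PLAUR and the AP-1 gene FOSL2 had the highest values, both 0.67, with limma adjusted p of 0.0833 and 0.0663, and FOSL1, another AP-1 gene, had -0.77 (limma adjusted p 0.128). PLAUR passed in 3 and FOSL2 in 4 of the 11 alternatives that kept all samples, the replicate block among them (0.0322 and 0.0374 by limma). Over these alternatives the limma adjusted p ran from 0.0159 to 0.175 for PLAUR and from 0.0167 to 0.154 for FOSL2. FOS, at 0.61, also passed in some of these alternatives, after GC correction at a limma adjusted p of 0.0299. Without sh-ANP32B replicate 1 the log2 fold change was 0.88 for PLAUR, 0.81 for FOSL2 and -0.88 for FOSL1. Without replicate 2 it was 0.47 for PLAUR and 0.54 for FOSL2. The median of the 14 was 0.52, beside -0.020 for the 9 feedback genes. The difference between the 2 lists was not tested.

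Of 5 other DUSP genes, 0 passed the limma test and 2 had an unadjusted p under 0.05. DUSP1, an early response phosphatase of several MAP kinases, had 4.83 and 5.19 TPM in NC, against 7.83 and 8.75 TPM after knockdown, or 0.63 on the log2 scale (limma adjusted p 0.145). DUSP2 had 7.93 and 7.64 TPM in NC, against 4.02 and 5.66 TPM after knockdown, with -0.60 (limma adjusted p 0.194). It passed after GC correction, at -0.85 with an adjusted p of 0.0321 by limma, and without sh-ANP32B replicate 2, at -0.81 and 0.0435. DUSP10 and DUSP7 had values of 0.13 and 0.014, of which that of DUSP7 was below the median of all genes and stood at -0.077 after median-of-ratios scaling.

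The other ETS factors numbered 14, of which 0 passed the limma test and 1 had an unadjusted p under 0.05. That gene was SPI1, which encodes the myeloid factor PU.1, at 0.43 on the log2 scale (limma adjusted p 0.131). ELF1 followed with 0.35, and ERG and ELK1 were lowest with -0.61 and -0.32. Without sh-ANP32B replicate 1 the log2 fold change was 0.56 for SPI1 and -1.14 for ERG. Without replicate 2 it was 0.29 for SPI1, 0.51 for ELF1 and -0.58 for ELK1. ELF1 passed after GC correction (limma adjusted p 0.0443).

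**Figure D3:**
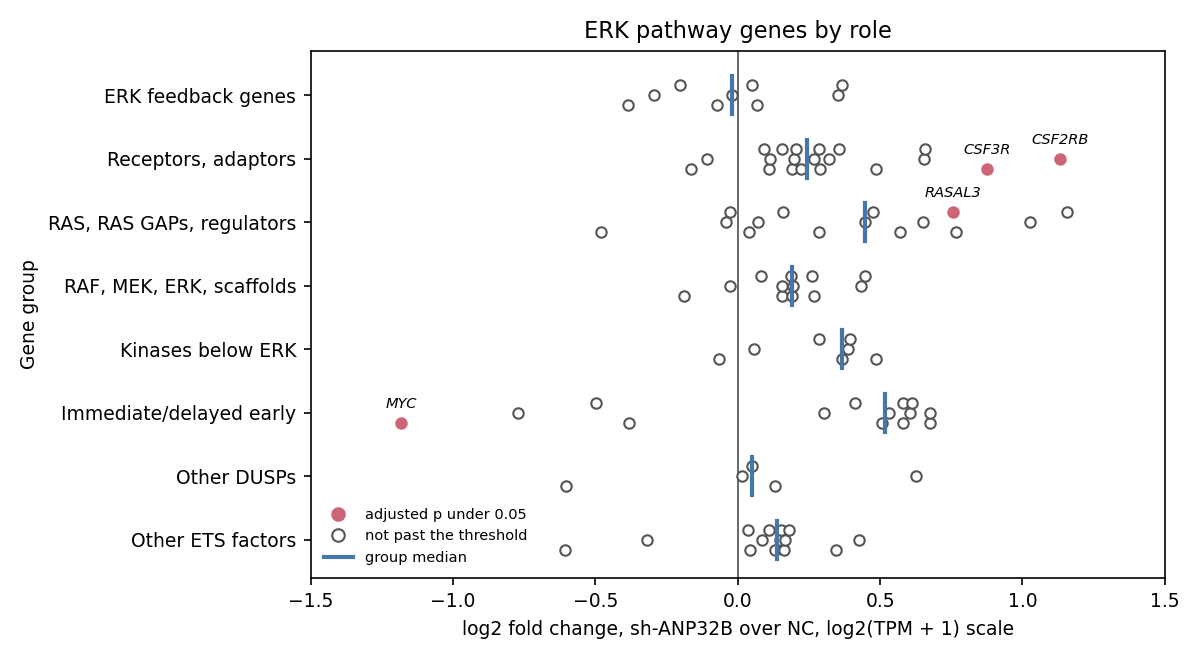
log2 fold change in sh-ANP32B over NC (horizontal axis, log2(TPM + 1) scale) of the ERK feedback genes and of 87 other pathway genes, grouped by role. Each circle is 1 gene, filled and named where the limma adjusted p was under 0.05, and the blue bars are group medians, which run from -0.020 for the feedback genes to 0.52 for the early genes.

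Of the markers of myeloid maturation, 1 of 6 tested passed the limma test. The study's criterion was met by 4 of the 6, all higher in sh-ANP32B, beside 18.6% of all genes. The groups were fully separated in 5 of the 6, all higher in sh-ANP32B, beside 54.6% of all genes. The 6 measured of 8 listed summed to 766 and 821 TPM in NC and to 1529 and 1572 TPM in sh-ANP32B, and all 6 had a fold change above 0, as did 9741 of the 16817 genes. LYZ, the lysozyme gene, made up most of these sums, with 669 and 697 TPM in NC, against 1360 and 1316 TPM after knockdown. The other 5 summed to 96.7 and 124 TPM in NC and to 169 and 256 TPM in sh-ANP32B. LYZ was higher by 0.97 on the log2 scale (limma adjusted p 0.0281), and CD14 and LTF were not analysed here. In bulk RNA a different share of cells of a type and a different amount of RNA per cell cannot be told apart. Mitochondrial transcripts made up 12.9% and 13.1% of the TPM in NC and 11.4% and 8.43% in sh-ANP32B. Without them no feedback gene reached an adjusted p under 0.05 in limma. The part of the maturation markers in the values of the ERK feedback genes was not tested.

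The fold changes of the 9 genes were recomputed under other scalings, filters and corrections. In the 11 alternatives that kept all samples, 7 of the 9 kept their direction throughout, all except DUSP4 and DUSP6, and none reached a limma adjusted p under 0.05.

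**Figure D4:**
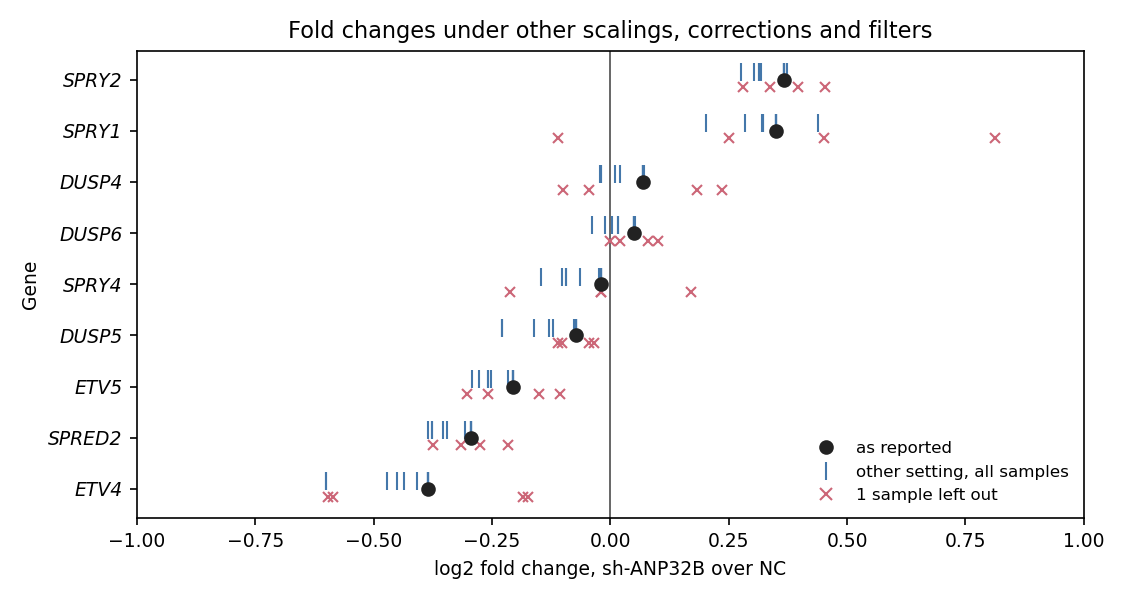
log2 fold change of each ERK feedback gene in sh-ANP32B over NC (horizontal axis) as reported (black circles), under the 11 alternatives that kept all samples (blue ticks) and with 1 sample left out (red crosses). SPRY1 moves most when a sample is left out, from -0.11 to 0.81, and SPRED2, ETV4, ETV5 and DUSP5 stay below 0.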

How the data were processed

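RNA from 4 Kasumi-1 samples was prepared with Trizol and a TruSeq RNA kit, and the authors aligned the reads to hg38 with HISAT2 (v2.0.5). The deposited values are TPM per Ensembl gene. The unit was read from the column totals of 997812 to 998314. The program and annotation behind these values are not given in the sources used here. TPM keeps no sequencing depth, so depth is unknown and counting errors were not computed.

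Symbols, positions and GC content came from GENCODE v44, which matched 16986 of 18567 gene IDs. Genes that reached 1 TPM in 2 or more samples were kept. The groups were compared across all genes by limma 3.58.1 (R 4.3.3) with an abundance trend on log2(TPM + 1), two-sided, with Benjamini-Hochberg adjustment. An exact permutation test on 2 against 2 samples cannot reach the threshold and was not run. The fit was tested on simulated data.

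The feedback genes and pathway lists were chosen by name with earlier results of these data known. All measured feedback genes are named. From each pathway list those with an adjusted p under 0.05 and the 2 highest and 2 lowest fold changes are named, except that some listed genes are not reported here. Alternatives covered scaling, filters, pseudocount, GC content, variance model, replicate block and leaving out each sample.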

Additional observations from a re-analysis of the deposited data

How the results depend on the processing

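The counts for the ERK feedback genes changed little with the processing. The number with an adjusted p under 0.05 was 0 in each alternative that kept all samples and 0 to 1 when 1 sample was left out. The number past the study's criterion, 0 as reported, was 1 with GC correction, 1 with GC correction and the replicate block, and 0 to 1 when 1 sample was left out. The 4 calls among the other pathway genes became 2 after median-of-ratios scaling, 12 after GC correction, 8 with the replicate block and 0 in limma without the abundance trend (19 at an unadjusted p under 0.05), and 1 to 30 when 1 sample was left out. Over all genes the 559 became 2319 after GC correction, 1473 with the replicate block, 1413 with the block and GC correction, 0 without the trend (3701 at an unadjusted p under 0.05), and 273 to 4079 when 1 sample was left out. Of the 559 genes 360 were higher and 199 lower, against 236 and 294 after median-of-ratios scaling. Quantile normalization gave 244 higher and 234 lower, GC correction 1056 and 1263, and GC correction with the block 616 and 797. The cause of these shifts was not tested.

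Replicate numbers were shared by the groups only in the titles. Across genes, samples with equal numbers deviated from their groups with correlations of -0.0925 (Pearson) and -0.168 (Spearman). With 2 samples per group these values cannot decide whether the numbers paired the samples. The replicate block changed no call on a feedback gene, while the calls over all genes went from 559 to 1473. A crossed replicate block, added after the data were seen, gave 10 pathway genes and 1995 genes in all.

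Among single genes, DUSP4 became negative after median-of-ratios scaling (-0.021), GC correction (-0.019) and GC correction with the block (-0.019), and DUSP6 after median-of-ratios scaling (-0.039) and quantile normalization (-0.010). DUSP7 was -0.077 and -0.044 under those last 2 settings, -0.034 without mitochondrial genes, -0.19 after GC correction and -0.19 with the block as well. RPS6KA5 was -0.019 and -0.086 after median-of-ratios scaling and quantile normalization. With 1 sample left out, the values on the log2 scale ranged from -0.10 to 0.24 for DUSP4, from -4.5e-05 to 0.10 for DUSP6, from -0.11 to 0.81 for SPRY1, from -0.21 to 0.17 for SPRY4, from -0.042 to 0.071 for DUSP7, from -0.23 to 0.17 for BRAF, from -0.40 to 0.27 for RPS6KA3 and from -0.35 to 0.47 for RPS6KA5. Without counts, no depth could be set against these values, and the 2 samples per group limit every interval.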
